A study of Homo sapiens with 27 samples.

Results

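MM134 LTED-A was compared with the MM134 parental cells from which it was grown, with 3 RNA-Seq libraries of each, or 6 of the 27 libraries of the series. MM134 is an estrogen receptor-positive cell line from a human invasive lobular breast carcinoma. LTED-A is 1 of 4 variants that were derived from it separately by months of culture in medium with charcoal-stripped serum, which holds little steroid hormone, until the cells grew without estrogen. LTED-A is therefore 1 derivation of 1 line, and its 3 libraries come from wells seeded side by side, so the p-values measure the spread between wells and not between derivations. The parental cells were kept in another base medium with ordinary serum. They were hormone-deprived, in the medium of the variants, for only 3 days before collection. Long deprivation is therefore compared with short deprivation, and neither group received estrogen. Charcoal also takes other lipophilic compounds out of serum, so long loss of estrogen and long culture in this medium cannot be told apart. The other variants, named LTED-B, LTED-D and LTED-E, have 3 libraries each, were grown in the same way and show where LTED-A differs. All 4 variants are set against the same 3 parental libraries.

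The counts summed to between 28583554 and 33811162 in the parental libraries and between 54982585 and 101378762 in LTED-A, and to between 32284183 and 52502195 in the other variants, so low levels were measured more closely in LTED-A. All 7 epithelial markers looked for were present in both groups, with a summed level of 4348 to 4359 CPM (counts scaled to library size) in parental cells and 6476 to 6976 CPM in LTED-A. Among 12 markers of immune cells, CD3E and CD3D had no count in any of the 6 libraries, and the pan-leukocyte gene PTPRC had at most 14 counts in a library, whereas 5 markers could be tested, of which CD68, LYZ and ITGAM rose and NCAM1 fell. The summed level of 7 fibroblast markers was 20.7 to 35.8 CPM in parental cells and 11.3 to 12.4 CPM in LTED-A. Parental replicate 3 stood apart in these genes: LUM, a matrix protein of connective tissue, was at 2.77 CPM there and had no count in parental replicates 1 and 2. Calls were therefore also counted without it. Of 4 endothelial and 4 adipocyte markers the summed level was 1.496 to 2.93 CPM and 1.496 to 1.90 CPM in parental cells, and 4.64 to 5.04 CPM and 2.56 to 3.11 CPM in LTED-A. Of the endothelial markers only PECAM1 went up, from 0.991 to 4.59 CPM. VWF fell from 0.722 to 0.187 CPM, and the means of CDH5 (not called) and KDR (too low to test) were lower as well.

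Estrogen receptor alpha is a transcription factor that, with its ligand, switches on genes for growth and secretion in luminal breast cells. Interferons are secreted signals that act through JAK kinases and STAT factors to induce a shared set of antiviral genes, and interferon gamma also induces the class II MHC genes, which present peptides to T cells and are otherwise the mark of professional antigen-presenting cells. S100 proteins are small calcium-binding proteins, several of which are made by stressed or inflamed epithelium.

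The switch from parental cells to LTED-A involved about equal numbers of rises and falls. A gene was called where the fold change exceeded 1.5 in either direction and edgeR's quasi-likelihood test gave an adjusted p below 0.001. Of 26061 genes tested, 2741 (10.5%) rose and 2558 (9.82%) fell, which is 5299 (20.3%) in all, and 4169 of these were protein-coding. More than 4-fold rises were seen in 825 genes and more than 4-fold falls in 720. The median log2 fold change of all genes tested was -0.01. Without parental replicate 3, 2650 genes rose and 2450 fell. In bulk RNA, more cells that express a gene and more RNA of it per cell cannot be told apart, here and in what follows.

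Set directly against the other variants, in the same fit of all 15 libraries, LTED-A was higher than LTED-B in 1058 genes (4.06%) and lower in 781 (3%), or 7.06% in all. It was higher than LTED-D in 1166 genes (4.47%) and lower in 1410 (5.41%), together 9.88%. Against LTED-E it was higher in 1354 genes (5.2%) and lower in 690 (2.65%), together 7.84%. Compared with the same parental libraries, LTED-B was higher in 8.11% of genes and lower in 7.75%, LTED-D in 9.63% and 7.95%, and LTED-E in 8.71% and 10.3%. Of the 2741 rises 1329, and of the 2558 falls 1369, showed no called difference from any other variant. In 257 genes (0.986% of those tested) LTED-A was above all 4 other groups, and in 91 genes (0.349%) it was below them all, which is 1.34% together. Of these, 213 and 88 were protein-coding. With parental replicate 3 left out the numbers were 260 and 90, and without LTED-D replicate 2, which also carried fibroblast transcripts, they were 247 and 87.

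**Figure D1:**
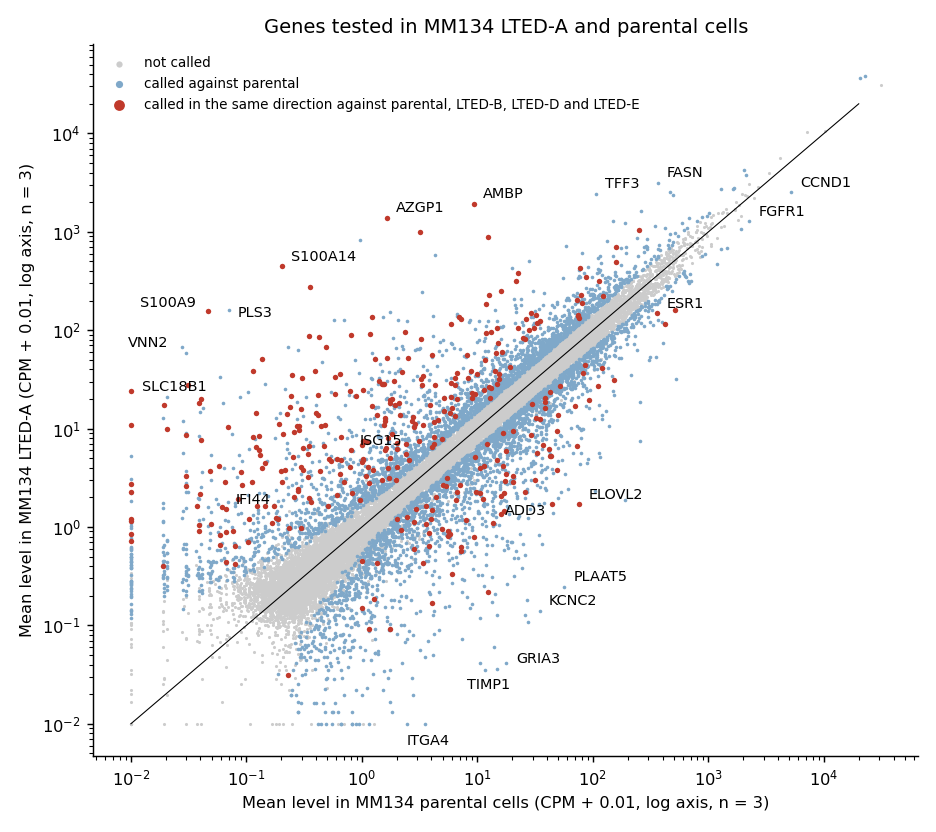
Mean level of each gene tested in parental cells (horizontal axis) and in LTED-A (vertical axis), in CPM plus 0.01 on log axes, n = 3 per group. Grey points are not called, blue points are called against parental cells, and red points are called in the same direction against all 4 other MM134 groups. S100A9, PLS3, VNN2 and SLC18B1 lie at the left edge, where parental cells were at or below 3 counts per library, and ITGA4 lies at the bottom.

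Several genes went from no detectable transcript to clear expression. A gene was taken as below detection where every library of a group had at most 3 counts, and a fold against such a group is a lower bound. By this measure 74 genes, 52 of them protein-coding, were below detection in parental cells and reached at least 1 CPM in LTED-A, and 16 genes did the reverse. LTED-A was sequenced more deeply, so these counts depend on depth: with all libraries thinned to the smallest, the numbers were 77 and 51, and without LTED-A replicate 1, the deepest library, they were 73 and 32. None of the 74 genes was below detection in all of LTED-B, LTED-D and LTED-E, and 14 of them reached 1 CPM in all 3.

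S100A9, which with S100A8 forms the inflammatory protein calprotectin, was 1 of the 74 and was also higher in LTED-A than in each other variant. Its level was 159, 159 and 155 CPM in the 3 LTED-A wells and 0.0566, 0.0534 and 0 CPM in the parental wells. The gene lies at chr1:153357854-153361023 (hg38, GENCODE release 44, as for all gene positions given here). The LTED-A wells were all far above the others, at least 1806-fold over the parental floor. The other variants held 0.644 CPM in LTED-B, 4.04 in LTED-D and 15.2 in LTED-E. SLC18B1 (chr6:132769370-132813339), a vesicular transporter of polyamines, had no count in any parental library and 24.4, 23.8 and 23.8 CPM in LTED-A, at least 275-fold higher. PCP4L1 likewise had no parental count and 10.4, 11.4 and 10.7 CPM in LTED-A, whereas LTED-B and LTED-E had at most 3 counts in a library and LTED-D had 3.12 CPM. Both genes were higher in LTED-A than in each other variant.

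Some of the other large rises were shared with other variants. VNN2, a surface enzyme of the vanin family, reached 67.9 ± 1.18 CPM (SD, n = 3) and was higher still in LTED-E, at 104 CPM. FOLR3, a secreted folate-binding protein, showed the same order, with 59.3 CPM in LTED-E and 20.8 in LTED-A. The actin-bundling gene PLS3 stood at 159.7 CPM and did not differ by the call from LTED-B or LTED-D. AGR3, of the protein disulfide isomerase family, reached 58.4 CPM and was not called against LTED-B. TUBAL3, an alpha tubulin-like gene, at 17.5 CPM, and the acute-phase gene SAA1, at 28.01 CPM, were above all 4 other groups. SAA1 has a close copy, SAA2, which rose as well (log2 fold change 5.28, SE 0.16, adjusted p = 2.67e-15), and how reads were divided between the copies is uncertain.

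Of the 16 genes lost in LTED-A, 12 were also at or below 3 counts per library in at least 1 other variant and 4 in all 3, namely ITGA4, THEG, NEUROD4 and the small RNA gene SNORA17B (ENSG00000276161), which only 1 parental library contained. ITGA4, the alpha 4 integrin chain that binds fibronectin and VCAM1, was at 3.77, 3.52 and 3.26 CPM in parental wells and had no count in LTED-A, at least 75.4-fold lower. It also had at most 1 count in any library of the other variants. MARCHF4, a membrane-bound ubiquitin ligase, fell from 2.43 CPM to no count, at least 52.1-fold lower. The homeobox gene DLX5 fell from 2.76 CPM to at most 1 count in a library, at least 59.1-fold lower.

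Among falls measured in both groups, GRIA3, a subunit of AMPA-type glutamate receptors, went from 17.5 to 0.0316 CPM (log2 fold change -8.92, SE 0.16, adjusted p = 7.36e-19) and the other variants held 0.593 CPM in LTED-B, 9.200 in LTED-D and 0.0347 in LTED-E. TIMP1, an inhibitor of matrix metalloproteinases, fell from 11.6 to 0.0255 CPM and was even across the parental wells (11.4, 11.2 and 12.3 CPM), and the potassium channel gene KCNC2 fell from 34.8 to 0.1304 CPM. BRINP1 fell from 27.2 to 0.0986 CPM, EYA2, a phosphatase and transcriptional coactivator, from 13.99 to 0.0509 CPM, and PLAAT5, a phospholipase and acyltransferase, from 56.3 to 0.237 CPM. The parental wells lay far above the LTED-A wells in each of these genes, and no LTED-A well reached 1 CPM in any of them. Each of them was also called lower than parental cells in LTED-B, LTED-D and LTED-E. BRINP1 and PLAAT5 showed no called difference between LTED-A and any other variant.

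Of the 10 protein-coding genes that lay furthest above all 4 other groups, 3 were interferon-stimulated genes. Only genes with a symbol and at least 1 CPM in LTED-A were ranked, by the smallest of their 4 log2 differences from the other groups. Outside this rule, ENSG00000278272, which has no symbol in the annotation used, lay further above, at 33.8 CPM in LTED-A and 0.573 CPM in parental cells. The 10 were C1orf127, S100A9, IFI44, FOXI1, ITIH2, C4BPA, ISG15, RSAD2, FOXA3 and NACA2. Plasma proteins among them were ITIH2, a heavy chain of inter-alpha-trypsin inhibitor, at 8.97, 9.18 and 8.36 CPM in LTED-A and 0.198 CPM in parental cells, and C4BPA, a complement inhibitor, at 3.02, 2.72 and 2.76 CPM in LTED-A and 0.142, 0.134 and 0.0322 CPM in parental wells. The forkhead factors FOXI1 (1.62 CPM) and FOXA3 (3.29 CPM) were under 0.6 CPM in every other group. NACA2 reached 6.65 CPM from 0.4601 CPM, but it is nearly identical to NACA and its reads may be shared with that gene. C1orf127 rose in LTED-A, from 1.74 to 19.4 CPM, and fell in each other variant.

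Below all 4 groups, protein-coding genes with a symbol and at least 1 CPM in parental cells were ranked in the same way. ADD3 (chr10:109996368-110135565), a gamma adducin that joins spectrin to actin, was the furthest of these. Its level was 1.74, 1.69 and 1.63 CPM in LTED-A and 43.1, 43.7 and 45.7 CPM in parental wells (log2 fold change -4.70, SE 0.05, adjusted p = 5.04e-22). The groups did not overlap, and the other variants stood between LTED-A and the parental cells at 16.4 CPM in LTED-B, 28.7 in LTED-D and 22.1 in LTED-E. ELOVL2, which elongates polyunsaturated fatty acids, fell from 76.1 to 1.701 CPM (log2 fold change -5.46, SE 0.08, adjusted p = 2.47e-20), with 11.2 CPM in LTED-B, 7.802 in LTED-D and 7.25 in LTED-E. The endocrine homeobox gene NKX6-1 fell from 12.4 to 0.208 CPM and the proteoglycan CSPG4 from 1.73 to 0.0825 CPM. INPP1, an inositol phosphatase, fell from 1.25 to 0.177 CPM while LTED-D stood at 3.802 CPM. PKD2, a polycystin calcium channel, fell from 7.99 to 1.17 CPM, the chloride channel ANO2 from 2.82 to 0.582 CPM and the somatostatin receptor SSTR5 from 1.13 to 0.08200 CPM. GLDN, an adhesion protein, fell from 3.99 to 0.158 CPM while LTED-B stood at 6.44 CPM. ACAD11, an acyl-CoA dehydrogenase, fell from 9.69 to 2.28 CPM and stood between 8.12 and 11.2 CPM in the other variants.

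**Figure D2:**
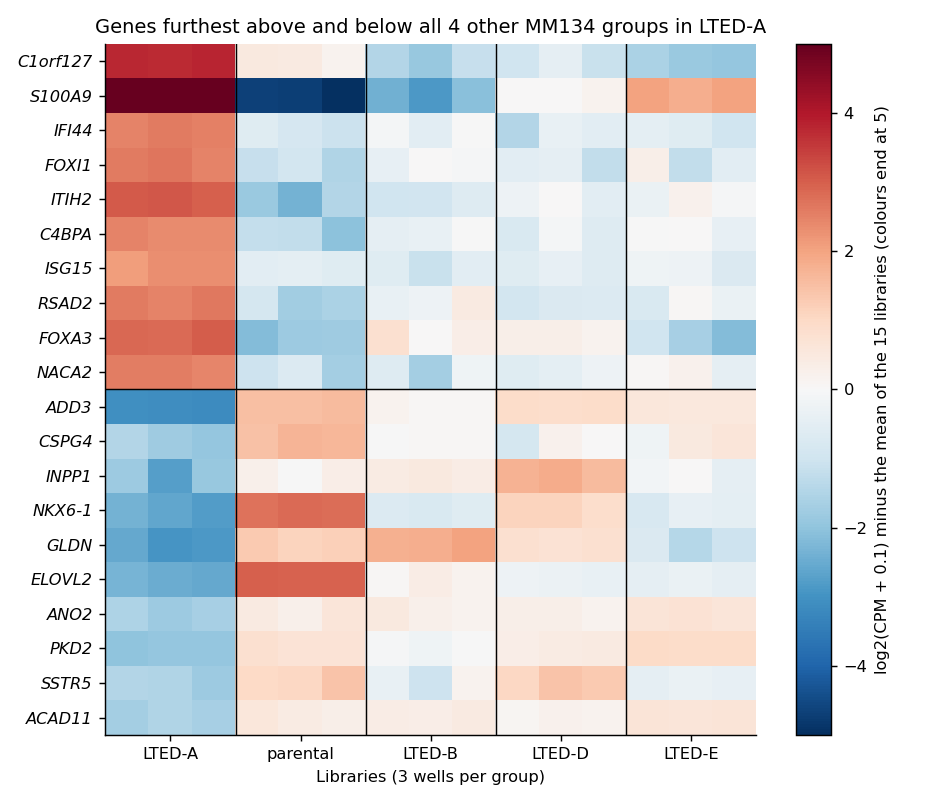
Level of the 10 protein-coding genes furthest above and the 10 furthest below all 4 other MM134 groups in LTED-A. Only genes with a symbol and at least 1 CPM in the higher group were ranked. Each column is a library, 3 wells per group, each row a gene, and the colour is log2(CPM + 0.1) minus the mean over the 15 libraries, with colours ending at 5. The 3 LTED-A columns are the reddest in the upper 10 genes and the bluest in the lower 10, which the choice of these genes ensures.

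A set of antiviral genes that interferon induces was expressed more highly in LTED-A than in parental cells and, for 10 of them, than in any other variant. The sequences near their starts are shown first, because most of these genes share an element there. AAANNGAAA is the core of the element bound by the interferon-activated complex that holds STAT2 and IRF9. In RefSeq promoters of GRCh38.p14, taken from 250 bases before the start to 50 after it and searched on both strands, it was found in 31 of the 34 interferon-stimulated genes with a promoter in the table (91.2%) and in 3435 of 27305 genes in all (12.6%). It was found in 14 of 15 list members that rose in LTED-A and in 15 of 17 that were tested and did not rise. A match describes the letters only. The stretches around the match in 7 genes that were above all 4 groups in LTED-A follow, on the strand of the gene, with the match in capitals (in IFI44, IFIT1 and IFIT3 the element is on the opposite strand and is printed as the gene's strand reads).
ISG15, chr1:1013377-1013413, plus strand: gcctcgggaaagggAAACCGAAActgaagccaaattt
IFI6, chr1:27672262-27672298, minus strand: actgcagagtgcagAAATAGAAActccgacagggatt
IFI44, chr1:78649757-78649788, plus strand: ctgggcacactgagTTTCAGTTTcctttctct
IFIT1, chr10:89392506-89392542, plus strand: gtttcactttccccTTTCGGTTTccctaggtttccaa
IFIT3, chr10:89327861-89327897, plus strand: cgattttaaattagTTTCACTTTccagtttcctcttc
OAS1, chr12:112906895-112906931, plus strand: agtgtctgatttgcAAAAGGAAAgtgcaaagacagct
RSAD2, chr2:6877638-6877674, plus strand: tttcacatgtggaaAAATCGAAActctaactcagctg

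Of 45 interferon-stimulated genes listed, 42 passed the filter on low counts, and of these 20 were higher in LTED-A than in parental cells and 6 were lower (47.6% and 14.3%, beside 10.5% and 9.82% of all genes), with a median log2 fold change of 0.52 beside -0.01 for all genes. LTED-A was higher in 18 and lower in 1 compared with LTED-B, where 4.06% and 3% of all genes were. It was higher in 15 and lower in 6 compared with LTED-D (all genes 4.47% and 5.41%). Compared with LTED-E, it was higher in 16 and lower in 3 (all genes 5.2% and 2.65%). Part of the rise against parental cells was shared by the other variants. LTED-B had 15 members higher than parental cells and 7 lower (all genes 8.11% and 7.75%). In LTED-D 14 rose and 3 fell (all genes 9.63% and 7.95%), and in LTED-E 10 and 6 (8.71% and 10.3%). The 10 members above all 4 other groups in LTED-A were ISG15, IFI6, IFI44, IFIT1, IFIT2, IFIT3, OAS1, OASL, RSAD2 and GBP2.

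ISG15 encodes a ubiquitin-like protein that is attached to other proteins after interferon. It stood at 5.33, 6.33 and 6.33 CPM in LTED-A and 0.793, 0.828 and 0.742 CPM in parental wells (log2 fold change 2.92, SE 0.16, adjusted p = 1.47e-11). LTED-A was high in all 3 wells, and the other 3 variants, at 0.675 CPM in LTED-B, 0.778 in LTED-D and 0.889 in LTED-E, lay around the parental level. RSAD2, or viperin, which blocks viral replication, was at 5.201, 4.73 and 5.38 CPM in LTED-A and 0.368, 0.1602 and 0.194 CPM in parental wells (log2 fold change 4.39, SE 0.26, adjusted p = 3.67e-11). IFI44 was at 1.51 ± 0.0485 CPM in LTED-A (SD, n = 3), at least 17.3-fold over a parental level of at most 3 counts per library, and the other variants averaged 0.143 CPM or less.

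The IFIT genes encode proteins that bind foreign RNA and lie side by side on chromosome 10. IFIT2 rose from 1.35 to 13.7 CPM, IFIT3 from 0.598 to 4.902 CPM and IFIT1 from 1.62 to 6.34 CPM. LTED-E was near the parental level in all 3, with 1.49, 0.576 and 1.18 CPM. OAS1 and OASL, of the family of sensors that make 2-5A from double-stranded RNA, rose from 0.504 to 4.95 CPM and from 1.56 to 12.7 CPM. IFI6, which protects the endoplasmic reticulum membrane in infected cells, rose from 6.33 to 33.00 CPM (log2 fold change 2.38, SE 0.08, adjusted p = 8.39e-15). GBP2, an interferon-induced GTPase, rose from 3.29 to 27.8 CPM (log2 fold change 3.09, SE 0.09, adjusted p = 1.24e-15).

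The remaining members did not share this order. OAS2 and OAS3 rose in LTED-A but were higher in LTED-D, where OAS3 stood at 44.9 CPM against 3.41 CPM in LTED-A. BST2, or tetherin, which holds budding virus at the cell surface, rose from 14.1 to 162 CPM and was not called against LTED-D or LTED-E. LY6E rose from 74.3 to 337 CPM and IFIH1, the RNA sensor MDA5, from 20.1 to 38.3 CPM, with no called difference from any other variant. CMPK2, below detection in parental cells, reached 1.54 CPM. Several genes often used to score an interferon response were not called: MX1 was at 4.299 CPM in parental cells and 4.596 CPM in LTED-A, IFI27 at 0.847 (parental) and 0.693 CPM (LTED-A), and USP18, which restrains the receptor, at 19.1 (parental) and 22.4 CPM (LTED-A). IFI44L, the neighbour of IFI44, was at 0.579 (parental) and 0.678 CPM (LTED-A).

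The 6 members that fell were PARP9, DTX3L, PARP14, UBA7, IFITM3 and HERC6. PARP9, DTX3L and PARP14 lie together on chromosome 3 and act in ADP-ribosylation, and DTX3L fell from 51.1 to 26.6 CPM. UBA7, the enzyme that activates ISG15 for transfer, fell from 1.86 to 0.701 CPM, and HERC6, a HECT-type ubiquitin ligase, from 2.83 to 0.766 CPM. IFITM3, which blocks viral fusion, fell from 10.6 to 3.43 CPM and was higher in LTED-A than in LTED-B and LTED-D but lower than in LTED-E (29.3 CPM).

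Upstream of these genes, 3 of 25 interferon receptors and signalling factors rose in LTED-A and 6 fell (12% and 24%), so that the share of rises was near the 10.5% of all genes and the share of falls above their 9.82%. The 3 that rose were above all 4 other groups. CGAS (chr6:73413515-73452297), the sensor of DNA in the cytosol, was at 6.97, 6.75 and 6.69 CPM in LTED-A and 0.793, 1.09 and 1.06 CPM in parental wells (log2 fold change 2.79, SE 0.13, adjusted p = 1.36e-12). IRF9, the DNA-binding part of the interferon complex, was at 20.5 ± 0.609 CPM in LTED-A and 12.9 ± 0.458 CPM in parental wells (SD, n = 3 each, log2 fold change 0.66, SE 0.06, adjusted p = 2.53e-08), and it was lower than parental in LTED-D and LTED-E. IFNGR1, the ligand-binding chain of the interferon gamma receptor, rose from 24.8 to 82.9 CPM. The kinase JAK1 fell from 297 to 136 CPM and the feedback inhibitor SOCS3 from 6.66 to 0.419 CPM. SOCS1, another feedback inhibitor, the factors IRF1 and IRF5 and the lambda receptor chain IFNLR1 fell as well. STAT2, the partner of IRF9, was at 77.96 (parental) and 78.8 CPM (LTED-A), and the receptor chain IFNAR1 at 91.7 (parental) and 93.5 CPM (LTED-A), neither of them called. The interferon genes themselves were too low to test: IFNB1 had no count in parental libraries and 5, 2 and 2 counts in LTED-A, and IFNL1 had 0, 0 and 2 counts in parental libraries and 11, 6 and 6 in LTED-A.

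**Figure D3:**
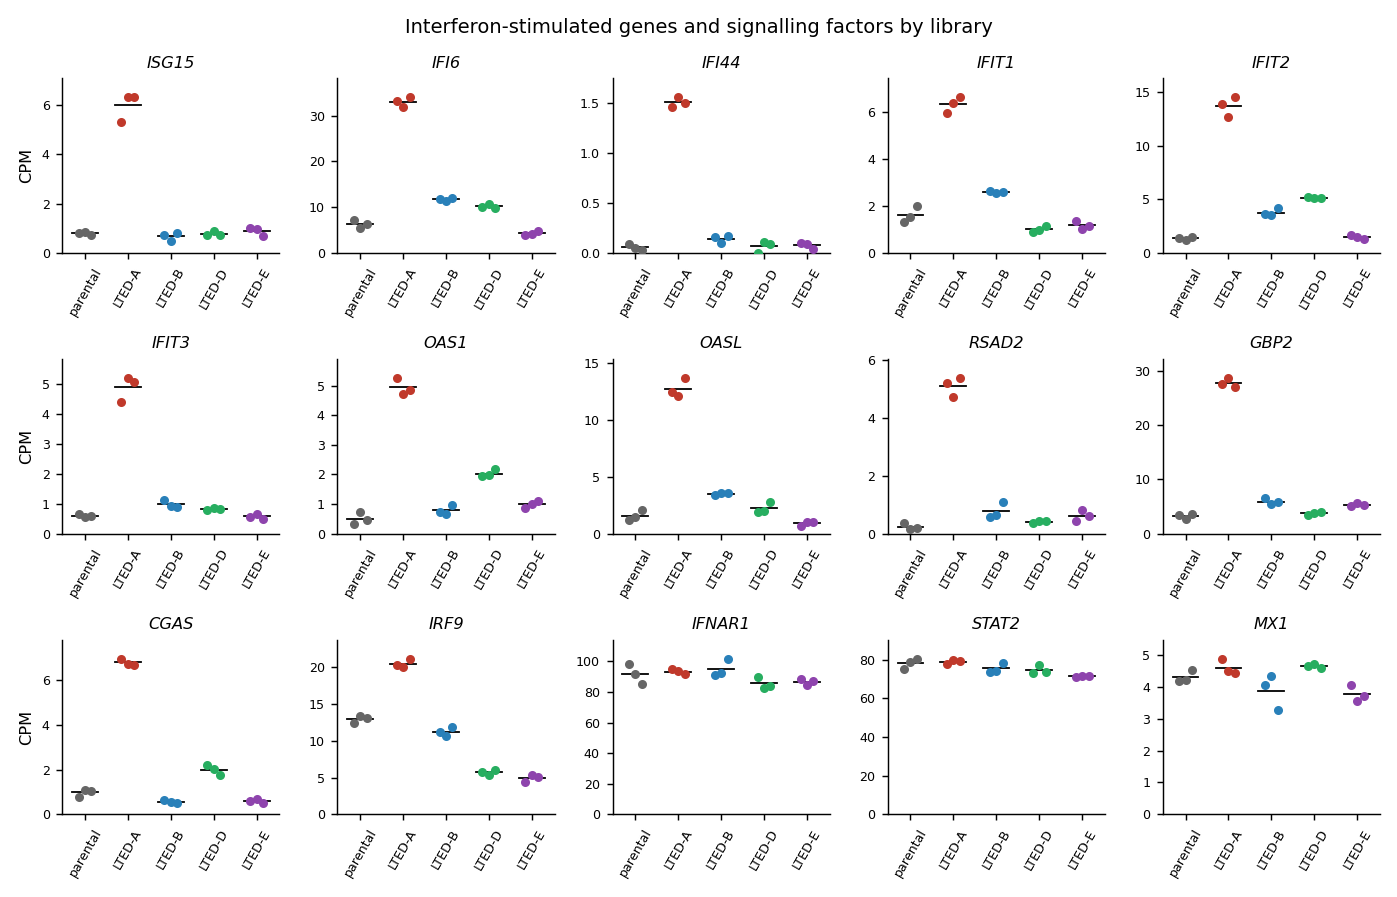
Level in CPM (vertical axis, each starting at 0) of 10 interferon-stimulated genes that were above all 4 other groups in LTED-A, and of CGAS, IRF9, IFNAR1, STAT2 and MX1. Points are the 3 wells of each group and black lines their mean. LTED-A holds the 3 highest points in the first 12 panels, while IFNAR1, STAT2 and MX1 show no such step.

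The class II MHC genes and their helpers rose together, 8 of them further in LTED-A than in any other variant. Of 18 tested, 14 rose and the other 4 were not called (77.8% higher beside 10.5% of all genes), with a median log2 fold change of 3.83. LTED-A was higher than LTED-B in 12, than LTED-D in 11 and than LTED-E in 8, where 4.06%, 4.47% and 5.2% of all genes were. Those above all 4 groups were HLA-DPA1, HLA-DPB1, HLA-DRA, HLA-DRB1, HLA-DRB5, HLA-DQA1, HLA-DQB1 and CD74. HLA genes resemble each other closely, and how reads were assigned between DRB1 and DRB5, or among the DQ genes, is uncertain.

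HLA-DPA1, the alpha chain of HLA-DP, was at 36.5, 40.04 and 38.7 CPM in LTED-A and 0.0566, 0.0267 and 0.226 CPM in parental wells (log2 fold change 8.60, SE 0.16, adjusted p = 1.65e-18), and the other variants held 3.599 CPM in LTED-B, 13.3 in LTED-D and 12.9 in LTED-E. CD74, the invariant chain that guards the peptide groove, was at 303, 315 and 336 CPM in LTED-A and 22.2, 21.2 and 21.4 CPM in parental wells (log2 fold change 3.88, SE 0.05, adjusted p = 6.41e-21). LTED-A was highest in all of its wells for both. HLA-DMA and HLA-DMB, which load peptides, rose from 2.22 to 69.4 CPM and from 0.318 to 20.96 CPM and were not called against LTED-E. CIITA, the master activator of the family, rose from 5.94 to 18.3 CPM and was above LTED-B but not called against LTED-D (13.2 CPM) or LTED-E (14.3 CPM). Its DNA-binding partners RFX5 and RFXANK were not called, at 64.7 and 39.4 CPM in LTED-A and 94.3 and 41.5 CPM in parental cells.

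Class II promoters carry a Y box bound by NF-Y, whose core is GATTGG. It was found on either strand in 11 of 16 promoters of the list (68.8%) and in 4880 of 27305 promoters in all (17.9%). It was found in 8 of 12 list members that rose in LTED-A, in 2 of 3 that were tested and did not rise, and also in 16 of the 26 promoters of cholesterol genes (61.5%). The stretches of 3 genes above all 4 groups are given with the match in capitals (CCAATC is GATTGG on the other strand).
HLA-DRB1, chr6:32589876-32589909, minus strand: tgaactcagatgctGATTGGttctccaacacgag
HLA-DPB1, chr6:33075901-33075934, plus strand: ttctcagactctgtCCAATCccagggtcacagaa
HLA-DQB1, chr6:32666702-32666735, minus strand: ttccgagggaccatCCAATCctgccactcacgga

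Of 22 class I genes tested, 7 rose and 1 fell (31.8% and 4.55%, against 10.5% and 9.82% of all genes), none of them above all 4 groups. B2M, the shared light chain, rose from 277 to 625 CPM, HLA-E from 25.9 to 55.4 CPM and the peptide transporter TAP1 from 4.23 to 9.29 CPM. The heavy chains HLA-B and HLA-C were not called, with HLA-B at 48.5 CPM in parental cells and 36.5 CPM in LTED-A. NLRC5, the activator of class I genes, fell from 2.46 to 1.28 CPM.

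S100 genes showed some of the largest rises. Of 23 S100 and annexin genes tested, 15 rose and 1 fell (65.2% beside 10.5%), with a median log2 fold change of 1.53. The list also rose in the other variants against the same parental libraries. LTED-D had 15 higher and 1 lower, with a median of 1.69 (all genes 9.63% and 7.95%). LTED-E had 13 and 3 (all genes 8.71% and 10.3%), and LTED-B 11 and 2 (8.11% and 7.75%). S100A8, S100A9, S100A14, S100A16, S100P and ANXA1 were above all 4 other groups in LTED-A. The first 4 lie within the S100 cluster of chromosome 1, in a stretch with PGLYRP4 in which 5 genes set LTED-A apart (chr1:153330120-153616986). S100A8, the partner of S100A9, was at 90.7, 86.3 and 85.7 CPM in LTED-A and 0.312, 0.214 and 0.484 CPM in parental wells (log2 fold change 8.05, SE 0.11, adjusted p = 1.22e-20), with 1.01 CPM in LTED-B, 3.63 in LTED-D and 18.9 in LTED-E. S100A14, an epithelial family member, was at 432, 445 and 469 CPM in LTED-A and 0.198, 0.187 and 0.194 CPM in parental wells (log2 fold change 11.16, SE 0.07, adjusted p = 1.66e-24), and S100A16 rose from 0.342 to 273 CPM. ANXA1, a mediator that ends inflammation, rose from 0.274 to 10.6 CPM and S100P from 0.2296 to 16.4 CPM.

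Not every neighbour moved alike. S100A6, in the same cluster, rose from 58.3 to 720.1 CPM in LTED-A but stood at 2.605 CPM in LTED-B. S100A11 was not called, at 55.9 (parental) and 75.3 CPM (LTED-A). ANXA2, which binds S100A10 at the membrane, fell from 75.2 to 41.5 CPM, and was higher than in LTED-D (3.18 CPM) and LTED-E (2.72 CPM). S100A8 and S100A9 are also abundant in myeloid cells. Of the myeloid genes among the immune markers, lysozyme (LYZ) rose from 0.273 to 9.63 CPM, CD68 from 0.214 to 14.2 CPM and ITGAM, an integrin chain, from 0.348 to 7.33 CPM, while CD14 had at most 6 counts in an LTED-A library, CSF1R was at 0.594 (parental) and 0.571 CPM (LTED-A), and PTPRC had at most 14 counts. The part of other cells in the S100 result was not tested. The summed level of the 12 immune markers was 25.4 to 29.97 CPM in parental cells and 33.7 to 34.8 CPM in LTED-A. Most of the parental sum was NCAM1, a surface marker of natural killer cells and neurons, which fell from 25.7 to 2.25 CPM, while the myeloid genes above make up most of the sum in LTED-A.

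**Figure D4:**
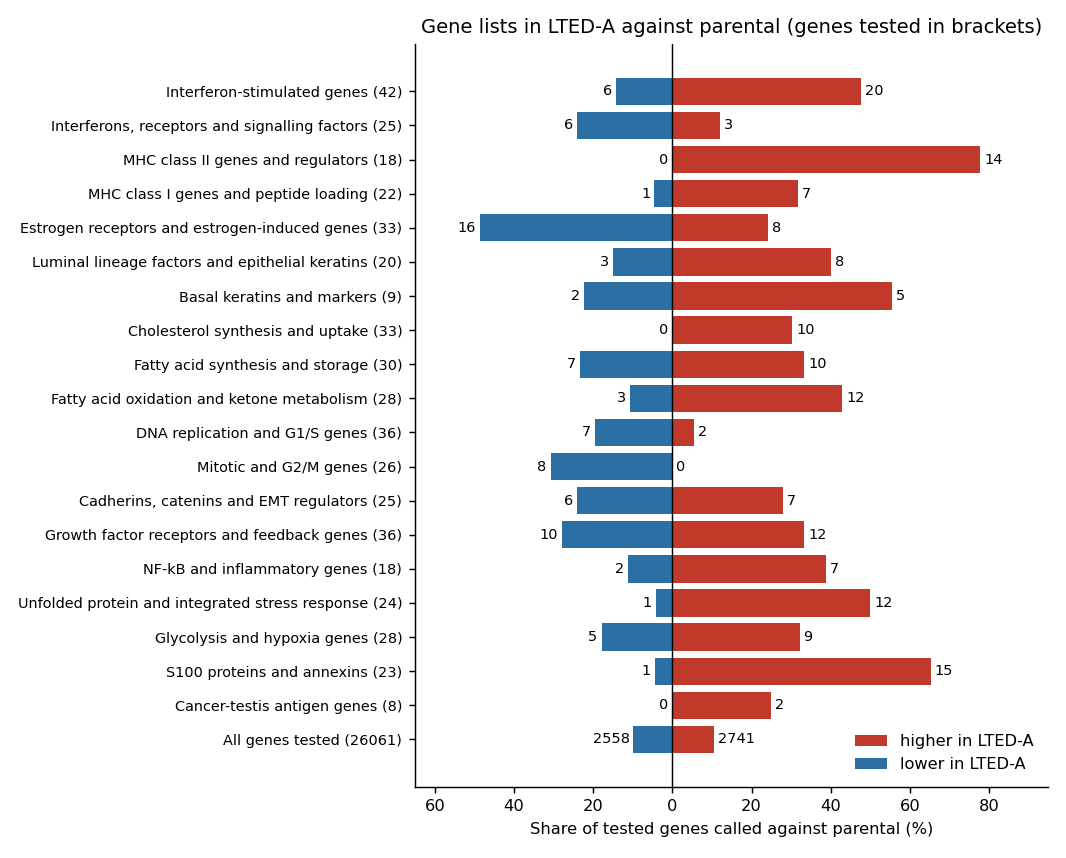
Share of tested genes called higher (right, red) and lower (left, blue) in LTED-A than in parental cells, in percent, for 19 gene lists and for all genes, with the number called beside each bar and the number tested in brackets. MHC class II genes reach 14 of 18 higher and estrogen-induced genes 16 of 33 lower, beside 2741 higher and 2558 lower of 26061 in all.

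Transcripts of the estrogen receptor and of many of its target genes were lower in LTED-A. Of 33 estrogen receptors and estrogen-induced genes, 16 fell and 8 rose (48.5% and 24.2%, where 9.82% and 10.5% of all genes did), with a median log2 fold change of -0.56. The other variants showed similar counts against the same parental libraries. In LTED-B 12 fell and 8 rose (all genes 7.75% and 8.11%), in LTED-D 13 and 9 (7.95% and 9.63%), and in LTED-E 13 and 8 (10.3% and 8.71%). ESR1, the gene of estrogen receptor alpha (chr6:151656691-152129619), was at 146, 152 and 148 CPM in LTED-A and 369, 347 and 363 CPM in parental wells (log2 fold change -1.27, SE 0.03, adjusted p = 3.37e-17). LTED-A had the lowest level of the 5 groups, below all of them by the test, whereas LTED-B (533 CPM), LTED-D (467 CPM) and LTED-E (265 CPM) were not called against parental cells. GREB1, a coactivator and direct estrogen target, was also lowest in LTED-A, at 16.3, 16.3 and 17.9 CPM in LTED-A, 71.7, 71.1 and 66.5 CPM in parental wells (log2 fold change -2.05, SE 0.04, adjusted p = 9.51e-18) and 75.2 CPM in LTED-B, 58.8 in LTED-D and 48.02 in LTED-E.

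TPD52L1 and EGR3, an immediate early factor, were also below all 4 groups, falling from 42.9 to 5.303 CPM and from 6.01 to 0.324 CPM. The progesterone receptor gene PGR fell from 2.65 to 0.1696 CPM, with low levels in every variant. MYC fell from 19.3 to 2.93 CPM but was higher in LTED-A than in each other variant. The insulin-like growth factor genes IGF1R and IRS1, a receptor and its adaptor, fell from 130.4 to 52.1 CPM and from 74.7 to 20.9 CPM, and the ligand AREG from 18.9 to 6.29 CPM.

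Secreted trefoil proteins, by contrast, rose. TFF1 went from 4.28 to 587 CPM (log2 fold change 7.10, SE 0.06, adjusted p = 2.88e-23), less far than in LTED-D (2431 CPM) or LTED-E (1021 CPM), and TFF3 from 107 to 2451 CPM without a called difference from any other variant. The lysosomal protease CTSD rose from 193 to 705 CPM and XBP1, a factor of secretory cells, from 1278 to 2747 CPM. WNT4, a secreted growth signal, rose from 6.04 to 13.8 CPM and was above LTED-B and LTED-D but not called against LTED-E (17.4 CPM). ESR2, the beta receptor, was not called, at 1.67 (parental) and 1.44 CPM (LTED-A).

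Luminal genes moved both ways. Of 20 luminal factors and keratins, 8 rose (40%, all genes 10.5%) and 3 fell (15%, all genes 9.82%). The pioneer factor FOXA1 was not called, at 403 (parental) and 389 CPM (LTED-A), whereas GATA3 fell from 163 to 104 CPM. PIP, a secreted protein of apocrine cells, rose from 0.1203 to 5.42 CPM and was above all 4 groups. The epithelial factors EHF and ELF3 rose from 23.7 to 182 CPM and from 15.3 to 48.02 CPM. Of 16 basal genes 9 were tested, of which 5 rose and 2 fell (55.6% and 22.2%, all genes 10.5% and 9.82%). SOX9, a progenitor factor, rose from 1.81 to 19.97 CPM and the adhesion receptor CD44 fell from 14.2 to 0.198 CPM. KRT5, KRT6A and KRT14, the defining basal keratins, had at most 5 counts in an LTED-A library.

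Adhesion genes moved both ways, 7 up and 6 down of 25 (28% and 24%, against 10.5% and 9.82% over all genes). CDH1, the E-cadherin gene whose loss marks lobular carcinoma, was at 12.9 (parental) and 11.2 CPM (LTED-A) and was not called. CDH2, or N-cadherin, fell from 52.4 to 8.48 CPM while LTED-D stood at 51.4 CPM. TJP1, a scaffold of tight junctions, rose from 3.17 to 66.1 CPM, to about the same level in every variant.

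Some growth factor receptor genes rose while others fell. Of 36 receptors, ligands and feedback genes, 12 rose and 10 fell (33.3% and 27.8%, beside 10.5% and 9.82% of all genes), with a median log2 fold change of 0.08. FGFR4 (chr5:177086905-177098144), a fibroblast growth factor receptor, was at 675, 692 and 733 CPM in LTED-A and 156, 162 and 159 CPM in parental wells (log2 fold change 2.14, SE 0.04, adjusted p = 2.93e-19), above 327 CPM in LTED-B, 348 in LTED-D and 218 in LTED-E. SPRY1, a feedback inhibitor that growth factor signals induce, was at 93.04, 90.4 and 93.8 CPM in LTED-A and 1.16, 1.15 and 1.16 CPM in parental wells (log2 fold change 6.32, SE 0.07, adjusted p = 2.15e-21). These were the 2 members above all 4 groups, and in each the LTED-A wells lay clear of every other library. ETV5, a factor downstream of the MAP kinase route, rose from 0.393 to 17.3 CPM and ERBB4, a neuregulin receptor, from 5.07 to 79.6 CPM.

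FGFR1 fell from 2257 to 1288 CPM and FGFR2 fell from 4.998 to 0.854 CPM. ERBB2, the HER2 receptor, fell from 72.8 to 10.6 CPM (log2 fold change -2.78, SE 0.05, adjusted p = 1.37e-18) and was lower than in LTED-B (16.2 CPM). ERBB3 was at 429 (parental) and 369 CPM (LTED-A) and was not called. MET, the hepatocyte growth factor receptor, rose from 2.48 to 7.94 CPM, above LTED-B and LTED-D. EGFR had at most 8 counts in any of the 6 libraries.

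**Figure D5:**
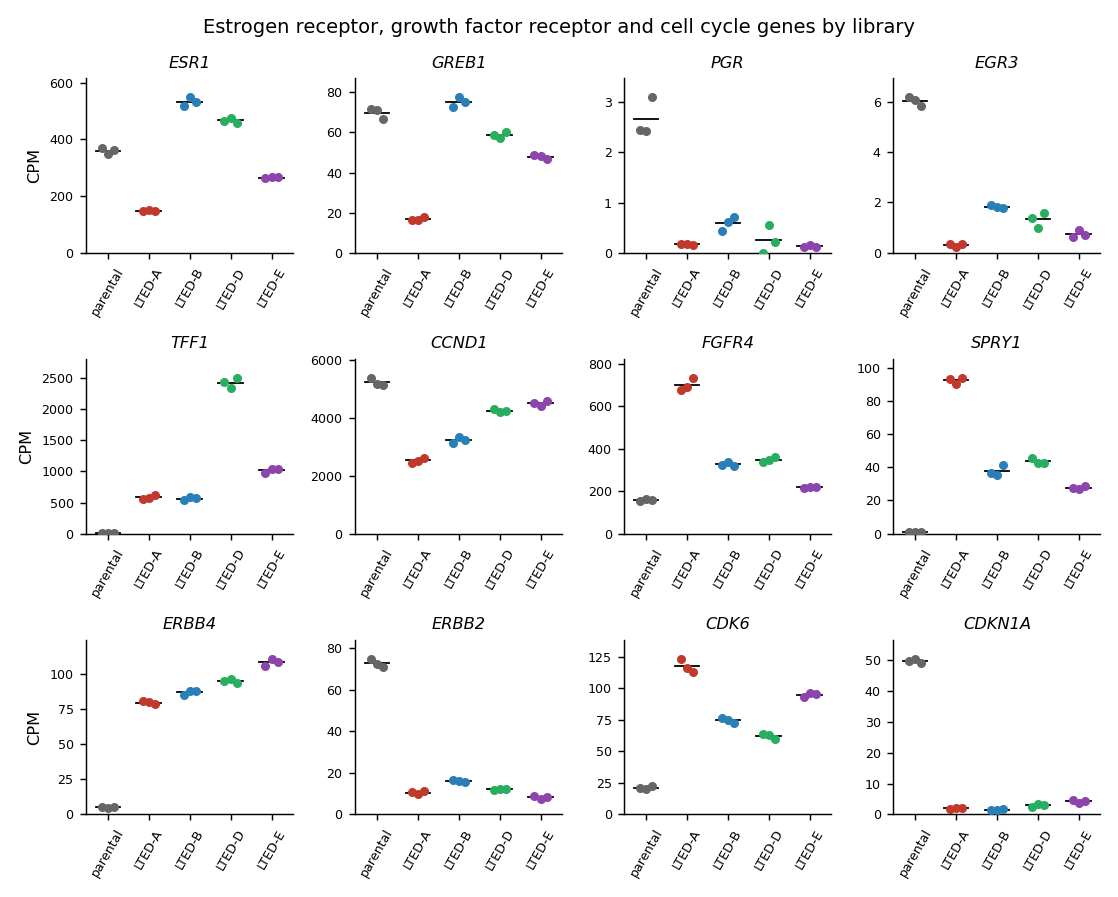
Level in CPM (vertical axis, each starting at 0) of estrogen receptor, growth factor receptor and cell cycle genes in the 5 MM134 groups. Points are the 3 wells of each group and black lines their mean. LTED-A is the lowest group in ESR1, GREB1, EGR3 and CCND1 and the highest in FGFR4 and SPRY1.

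Some cell cycle genes fell, and most were not called. Of 26 mitotic genes 8 fell and the other 18 were not called (30.8% lower beside 9.82%), with a median log2 fold change of -0.47, and of 36 replication genes 2 rose and 7 fell (5.56% and 19.4%, beside 10.5% and 9.82%), with a median of -0.34. TOP2A, the topoisomerase of dividing cells, fell from 1441 to 687 CPM and the mitotic kinase gene CDK1 from 259 to 139 CPM. MKI67, the gene of the proliferation marker Ki67, was at 180.0 ± 2.26 CPM in LTED-A and 263 ± 24.9 CPM in parental wells (both SD, n = 3), which did not pass the fold change minimum, and it was higher in LTED-E (376 CPM). Against LTED-E, LTED-A was lower in 4 mitotic and 6 replication genes (2.65% of all genes were lower). Against LTED-B it was lower in 1 of 26 mitotic genes, CENPA, which marks centromeres, a share near the 3% of all genes.

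Some regulators of the G1 step were called as well. CCND1, the cyclin D1 gene that estrogen induces, was at 2455, 2511 and 2626 CPM in LTED-A and 5375, 5166 and 5127 CPM in parental wells (log2 fold change -1.05, SE 0.03, adjusted p = 2.17e-15), lower than in LTED-D and LTED-E but not called against LTED-B. CDK6, a partner of cyclin D, rose from 21.2 to 117 CPM (log2 fold change 2.47, SE 0.04, adjusted p = 9.99e-19), and CDK4 was at 79.5 (parental) and 80.3 CPM (LTED-A), not called. CDKN1A, the p21 inhibitor, was at 1.85, 2.02 and 2.03 CPM in LTED-A and 49.8, 50.5 and 49.1 CPM in parental wells (log2 fold change -4.67, SE 0.08, adjusted p = 7.20e-19), and CDKN2B, the p15 inhibitor, fell from 17.6 to 6.33 CPM. The LTED-A and parental wells did not overlap in CDKN1A or CDKN2B. No gene of the replication list, which includes CDK6, CDKN1A and CDKN2B, was above or below all 4 other groups in LTED-A.

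FASN and SCD, which make palmitate and desaturate stearate, rose steeply, while the desaturases of polyunsaturated fatty acids fell. Of 30 fatty acid synthesis and storage genes, 10 rose and 7 fell (33.3% and 23.3%, where 10.5% and 9.82% of all genes did). FASN, fatty acid synthase (chr17:82078338-82098294), had one of the 5 largest gains in CPM of all protein-coding genes, at 2989, 3086 and 3381 CPM in LTED-A and 369.5, 370.4 and 349.8 CPM in parental wells (log2 fold change 3.12, SE 0.05, adjusted p = 1.85e-19). It was higher than in LTED-B (1406 CPM) and LTED-D (1859 CPM) and not called against LTED-E (2184 CPM). SCD rose from 468 to 2558 CPM, above LTED-B and LTED-D, and was not called against LTED-E (3716 CPM). SREBF1, which encodes the activator SREBP1, rose from 108 to 289 CPM, again above LTED-B and LTED-D and not called against LTED-E.

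DGAT2, which makes triglycerides for storage, was the 1 member above all 4 groups, at 114, 117 and 118 CPM in LTED-A, 5.86, 6.17 and 5.55 CPM in parental wells (log2 fold change 4.31, SE 0.05, adjusted p = 6.87e-22) and 5.32 CPM in LTED-B, 46.9 in LTED-D and 47.2 in LTED-E. ME1, a source of NADPH for synthesis, was below detection in parental cells and reached 8.35 CPM, at least 95.6-fold higher. The genes of polyunsaturated fatty acid synthesis fell: FADS1 from 112 to 5.58 CPM, FADS2 from 258 to 7.45 CPM and ELOVL5 from 228 to 131 CPM, and ELOVL2 was described above. SCD5, another desaturase, fell from 87.9 to 25.7 CPM.

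Cholesterol genes rose in 10 of 33 (30.3% beside 10.5%) and the other 23 were not called, with a median log2 fold change of 0.37. The sterol carrier STARD4 rose from 2.18 to 13.5 CPM, the squalene epoxidase SQLE from 158 to 358 CPM and HMGCS1, at the entry of the pathway, from 91.8 to 196 CPM. LTED-A was lower than LTED-E in 7 of these genes and higher in 1, where 2.65% of all genes were lower and 5.2% higher. The single gene above LTED-E, ABCA1, exports cholesterol and stood at 20.2 CPM, against 0.475 CPM there. TCACNCCAC, the core of the sterol regulatory element, was found in 1 of 26 cholesterol promoters (3.85%), 2 of 25 fatty acid synthesis promoters (8%) and 379 of 27305 in all (1.39%). None of the 8 cholesterol or 7 fatty acid promoters of genes that rose in LTED-A held it, and every match on these lists was in a gene that was tested and did not rise. Only this form of the element was searched, and it was rare on both lists. A match or its absence describes the letters only, and regulation of these genes was not tested.

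Oxidation genes rose in 12 of 28 (42.9% beside 10.5%) and fell in 3, a share of 10.7% that is near the 9.82% of all genes. ETFDH, which passes electrons from acyl-CoA dehydrogenases to ubiquinone, rose from 9.71 to 27.9 CPM (log2 fold change 1.52, SE 0.04, adjusted p = 7.88e-16). CPT1A, the carnitine transferase of the outer membrane, was at 456 (parental) and 378 CPM (LTED-A) and was not called. PPARA, a factor that activates these genes, fell from 34.5 to 16.6 CPM.

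Stress genes of the endoplasmic reticulum and of amino acid shortage rose in 12 of 24 (50% beside 10.5%) and fell in 1 (4.17% beside 9.82%). TRIB3, a pseudokinase induced by ATF4 and CHOP, was at 246, 249 and 256 CPM in LTED-A and 16.7, 15.7 and 15.2 CPM in parental wells (log2 fold change 3.98, SE 0.04, adjusted p = 8.03e-23), above 76.3 CPM in LTED-B, 48.5 in LTED-D and 127 in LTED-E. ERN1, the IRE1 sensor that splices XBP1, rose from 9.94 to 35.9 CPM and was above all 4 groups too. DDIT3, or CHOP, rose from 7.697 to 17.8 CPM, the chaperone HSPA5 from 125 to 221 CPM and asparagine synthetase ASNS from 31.98 to 59.9 CPM. ATF4 itself was at 203 (parental) and 289.8 CPM (LTED-A) and did not pass the fold change minimum.

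Of 26 inflammatory genes 18 were tested, of which 7 rose (38.9% beside 10.5%) and 2 fell (11.1%, near the 9.82% of all genes). LTED-A was below LTED-E in 7 and above it in 2, where 2.65% of all genes were lower and 5.2% higher. ICAM1, an adhesion molecule for leukocytes, rose from 0.296 to 3.77 CPM and the chemokine CCL5 from 0.953 to 1.85 CPM, both above all 4 groups. CCL20, below detection in parental cells, reached 1.11 CPM, less than the 10.3 CPM of LTED-E, and TNF rose from 0.312 to 1.16 CPM, less than the 5.42 CPM there. The NF-kB subunits NFKB1 and RELA were not called. Among 28 glycolysis and hypoxia genes 9 rose and 5 fell (32.1% and 17.9%, all genes 10.5% and 9.82%). CA9, the hypoxia-induced carbonic anhydrase, was below detection in parental cells and reached 3.31, 3.77 and 3.95 CPM, above all 4 groups and at least 42.1-fold higher, whereas NDRG1, also induced by hypoxia, fell from 7.41 to 1.17 CPM. Of 35 cancer-testis genes 8 were tested, of which 2 rose (25% beside 10.5% of all genes), MAGEA1 from 0.0689 to 0.6598 CPM and TDRD1 from 0.248 to 0.682 CPM.

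The genes with the largest gains and losses in CPM include several already described. Besides FASN, SCD and TFF3, the largest gains were those of CD24, a mucin-like surface protein, from 2014 to 4199.7 CPM, and AMBP, the precursor of the plasma protein bikunin, at 1868, 1902 and 2040.2 CPM in LTED-A and 9.26, 9.59 and 9.32 CPM in parental wells. AMBP was above all 4 groups, with 1101 CPM in LTED-B, 836 in LTED-D and 603 in LTED-E. Besides CCND1, FGFR1 and TOP2A, the largest losses were those of the chaperone gene HSP90AA1, from 1928 to 1079 CPM, and CLSTN2, a postsynaptic calsyntenin, from 1192 to 468 CPM. HSP90AA1 was lower than in LTED-D (2065 CPM), and CLSTN2 was higher than in LTED-E (223 CPM).

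Along the chromosomes, LTED-A and parental cells showed no broad shift. In 555 windows of 40 neighbouring genes, cut from the 11833 genes that averaged 5 CPM or more, the median log2 fold change lay between -0.26 and 0.40 and no window passed 0.5 in either direction. Against LTED-D, 2 stretches passed 0.5, the lowest with a median of -0.52 at chr16:15395754-22087534. Against parental cells the median of that window was 0.08 in LTED-A and 0.53 in LTED-D, so it was LTED-D that stood apart there. The windows from chr16:22910 to chr16:46831180 all had medians between -0.35 and -0.52 against LTED-D. Below the cut of 0.5, LTED-A was also lower than LTED-D in every window of chromosomes 7 and 12. Medians there lay between -0.13 and -0.36 on chromosome 7 and between -0.14 and -0.33 on chromosome 12. With windows of 20 genes, the highest median against parental cells was 2.08, at chr6:32164595-33200665, which holds the class II MHC genes.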

How the data were processed

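RNA of the MM134 cultures was sequenced after a stranded total RNA preparation. The authors quantified reads per transcript with Salmon 0.6.0, named in the submitters' processing notes with the hg38 genome, and summed them to Ensembl release 82 genes. The deposited file holds estimated counts per gene, 60619 genes in 27 libraries, of which 7473 genes had no count in any library. Symbols and positions came from GENCODE release 44 by Ensembl ID (56434 genes matched).

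Estimated counts were rounded and the 15 MM134 libraries, 3 per group by the sample titles, were fitted together with edgeR 4.0.16 in R 4.3.3 (filterByExpr, TMM normalization, two-sided quasi-likelihood test, p-values adjusted by Benjamini-Hochberg over all genes tested). A gene was called above a fold change of 1.5 at an adjusted p under 0.001, which follows the thresholds of the study. Levels are TMM-normalized CPM. A group with at most 3 counts in every library was treated as below detection (at most 0.0801 to 0.0967 CPM in parental libraries and 0.0298 to 0.0552 CPM in LTED-A), and folds against it are lower bounds that cover counting error only. Promoters were the RefSeq promoters of GRCh38.p14.

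Genes were named by a rule: protein-coding, called, at 1 CPM or more in the higher group, and either among the 10 largest rises or falls, the 10 furthest above or below all 4 other groups, the 5 largest gains or losses in CPM, or a member of 1 of 19 gene lists. Genes named outside it, such as list members that were not called or lay under 1 CPM, markers and the 4 genes lost in every variant, were chosen after their values were seen. Some genes that enter the counts are not reported here by name. The members, lists and rules were chosen with earlier results of these data known. The wells were seeded in triplicate from 1 culture, so p-values speak for these cultures only. Replicates of a group differed by more than sampling noise, so all were counted. Alternatives were DESeq2 1.42.0, RLE size factors, other filters, thresholds and depths, a replicate block and leaving out each library. The steps were tested on simulated data.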

Additional observations from a re-analysis of the deposited data

Results flagged for a closer look

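In 4 genes LTED-A rose against parental cells while LTED-B, LTED-D and LTED-E were each called lower than the same parental libraries, and 0 genes showed the reverse. Each of the 4 was also called in the direct tests of LTED-A against each other variant (edgeR).

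C1orf127 was at 19.5, 18.8 and 19.9 CPM in LTED-A and 1.87, 1.84 and 1.52 CPM in parental wells, with a log2 fold change of 3.47. The other variants held 0.414 CPM in LTED-B, 0.6997 in LTED-D and 0.313 in LTED-E, with log2 fold changes of -2.08, -1.33 and -2.49 against parental cells. ARMCX2, an armadillo-repeat gene on the X chromosome, was at 76.3, 73.03 and 74.4 CPM in LTED-A and 15.1, 14.7 and 15.7 CPM in parental wells (log2 fold change 2.30), with 8.89 CPM in LTED-B, 6.07 in LTED-D and 3.77 in LTED-E. DOC2B, a calcium sensor of vesicle release, was at 13.4, 13.1 and 13.5 CPM in LTED-A and 5.92, 6.84 and 6.38 CPM in parental wells (log2 fold change 1.06), with 1.304 CPM in LTED-B, 3.78 in LTED-D and 3.21 in LTED-E. GUCY1A2, a subunit of the nitric oxide-sensitive guanylate cyclase, was at 33.6, 31.4 and 30.4 CPM in LTED-A and 14.8, 14.6 and 16.9 CPM in parental wells (log2 fold change 1.05), with 4.62 CPM in LTED-B, 3.12 in LTED-D and 5.59 in LTED-E. In all 4 genes every LTED-A well was above every parental well.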

How the results depend on the processing

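Counts of called genes moved with the fold change minimum. With a minimum of 2, 3261 genes were called against parental cells, 1000 against LTED-B, 1431 against LTED-D, 1125 against LTED-E, and 180 set LTED-A apart from all 4 groups. With no minimum the counts were 9863, 5168, 6577, 5538 and 1088. Genes on or off were 207 with at most 10 counts in every library and 26 at 5 CPM or more. Stretches of neighbouring genes were 7 with windows of 20 genes and 1 with a mean of at least 1 CPM. With DESeq2 the counts were 5015, 1762, 2469, 1931 and 328. Leaving out each library in turn gave 4911 to 5100 genes against parental cells, 1664 to 1747 against LTED-B, 2303 to 2424 against LTED-D, 1827 to 1900 against LTED-E, 320 to 350 apart, 87 to 105 on or off, and 235 to 241 list genes beside 243 with all libraries. Of 289 named or listed genes followed, 105 lost at least 1 call under some alternative, 98 of them under the fold change minimum of 2, and 0 changed direction. RIGI, CANX and KRT18 lie just over the 1.5-fold minimum, and HLA-DQB2, KRT16, EPSTI1 and TP63 lost their call with DESeq2. Levels under about 0.1 CPM are limited by depth, more so in parental cells.

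The sample titles state no shared origin for replicates of the same number. Deviations of same-numbered parental and LTED-A libraries correlated at -0.247 to 0.318 (3 pairs, median 0.175). Those with different numbers correlated at -0.321 to 0.231 (6 pairs, median -0.0348). With so few pairs this cannot decide whether same-numbered wells were handled together. The replicate block gave 5200 genes against parental cells, 1779 against LTED-B, 2494 against LTED-D, 1956 against LTED-E, 334 apart and 242 list genes.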

Other observations

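Among the other genes that set LTED-A apart from all 4 groups, chosen here after their values were seen, several encode secreted and glandular products. AZGP1, a zinc-binding secreted glycoprotein, was at 1327, 1409 and 1452 CPM in LTED-A and 1.47, 1.95 and 1.48 CPM in parental wells (log2 fold change 9.72, SE 0.07, adjusted p = 3.50e-24), with 573 CPM in LTED-B, 322 in LTED-D and 610.0 in LTED-E. AGR2, a disulfide isomerase of mucin-secreting cells, rose from 3.17 to 998 CPM and ST6GAL1, which caps glycans with sialic acid, from 12.2 to 894 CPM. The complement genes C3 and CFB rose from 2.505 to 52.7 CPM and from 8.15 to 55.9 CPM, and CD55, which restrains complement on the cell surface, from 14.6 to 28.4 CPM. FFAR2, a receptor for short-chain fatty acids, rose from 22.3 to 386 CPM, and MFSD2A, a transporter of lysolipids, from 11.9 to 184 CPM. LIPA, the lysosomal acid lipase that lies beside IFIT2, rose from 32.1 to 144 CPM.

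Genes of steroid metabolism were in this group too. STS, the sulfatase that frees estrone and other steroids from their sulfates, was at 93.4, 95.8 and 93.5 CPM in LTED-A and 11.53, 12.1 and 12.1 CPM in parental wells (log2 fold change 2.98, SE 0.05, adjusted p = 1.20e-19), with 24.4 CPM in LTED-B, 8.17 in LTED-D and 22.7 in LTED-E. SRD5A2, a steroid 5-alpha reductase, rose from 0.105 to 8.296 CPM, and the aldo-keto reductases AKR1C2 and AKR1B10 rose from 0.112 to 14.4 CPM and from 0.188 to 3.65 CPM. AKR1C2 is close in sequence to its AKR1C neighbours, and the split of reads between them is uncertain.

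Among genes below all 4 groups, likewise chosen after their values were seen, FUNDC2, CMC4, MTCP1 and BRCC3 lie within chrX:155025980-155147937 and were all below every other group, with FUNDC2 at 15.9, 16.2 and 16.2 CPM in LTED-A and 38.2, 37.4 and 38.8 CPM in parental wells. CMC4 and MTCP1 share a locus, so their counts may not be separate. This was the 1 place where at least 3 genes below all 4 groups lay within 500000 bases of each other, beside 12 such places for genes above them. Histone genes, a family also chosen after the values were seen, were found by symbol, so any without a symbol are left out. Of 71 tested, 13 fell (18.3%, beside 9.82% of all genes) and the other 58 were not called. Histone genes took 0.823% to 0.839% of the counts in LTED-A and 1.15% to 1.35% in parental cells.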
